A study of Rattus norvegicus with 144 samples.

Results

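The most abundant annotated transcripts of the rat brain were 47 transcripts of 46 genes that held a mean of at least 200 FPKM (fragments per kilobase of transcript, scaled to the mapped fragments of the library, a level per length) in saline-treated F344 rats in each of 3 regions, the prefrontal cortex (PFC), the dorsal hippocampus (HIP) and the dorsal striatum (STR). They were taken from 38803 annotated transcripts listed in the tables of all 3 regions, of which 28061 were at least 700 bases long, the shortest length that the rule accepted. Messenger RNA was measured by RNA sequencing in 144 micro-punched tissue samples, with 12 rats in each of 4 groups per region. The groups were F344 rats given saline (F344_Sal), F344 rats given nicotine (F344_Nic), HIV-1Tg rats given saline (HIV_Sal) and HIV-1Tg rats given nicotine (HIV_Nic). HIV-1Tg rats are F344 rats with an HIV-1 genome that lacks gag and pol and is driven by the viral LTRs, all animals were adult males that had already been used in a behavioral study, and nicotine was injected subcutaneously at 0.25 mg/ml and 1 ml/kg 2 times per day for 17 days. The transgene makes most viral proteins but no replicating virus, so these rats model lasting exposure to viral proteins rather than infection.

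In brain tissue, messages for energy supply, the cytoskeleton, calcium signaling, synapses, protein synthesis and myelin are known to be among the most abundant, and a punch of tissue mixes neurons with astrocytes, oligodendrocytes, microglia and vessels. Regions differ in that mixture, and white matter bundles that cross the striatum are rich in oligodendrocytes, the cells that make myelin. The tables list transcripts by identifier and pair none of these with a gene symbol, so the members are numbered here from 1 to 47 by their mean FPKM over the 36 F344_Sal libraries, their functions are not given, and the labelled tissues could not be checked against cell type markers. In such bulk samples, fewer cells of a type and less RNA per cell cannot be told apart.

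The levels of the F344_Sal rats chose the members and are therefore described without a test. The median lengths of the members ran from 782.5 to 5063 bases with a median of 1796. There were 5 members under 1000 bases, 24 from 1000 to 2000 bases, 13 from 2000 to 3000 bases and 5 longer ones. For 32 members the gene had 1 annotated transcript, and for 15 it had several. In F344_Sal rats the highest regional mean of 18 members was that of the PFC, of 12 that of the HIP and of 17 that of the STR. The regional means of 8 members differed by at least 2-fold and those of 11 members by less than 1.2-fold. Just inside the limit were member 41 with a lowest regional mean of 203 FPKM in the STR and member 47 with 202.6 FPKM in the PFC, and the 2 transcripts just outside it had 197 and 195 FPKM in the STR. A level of 200 FPKM was reached by 71 transcripts of at least 700 bases in the PFC, 65 of the HIP and 64 of the STR, of which the members were 66.2%, 72.3% and 73.4%.

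The 10 highest members differed from one region to the next in F344_Sal rats. Members 1 and 2, 2 transcripts of 1 gene with lengths of 2272 and 2103 bases, had means of 737 and 675 FPKM in the PFC, 873 and 754 FPKM in the HIP and 1684 and 1807 FPKM in the STR. Member 3, of 3017 bases, had 573 FPKM in the PFC, 623 FPKM in the HIP and 2015 FPKM in the STR. The means of all 3 were more than 2 times as high in the STR as in the PFC. The HIP and STR means include the libraries labelled HIP F344_Sal 10 and STR F344_Sal 10. Each was closest to libraries of the other of these regions, as described below. For member 3 the former raised the HIP mean and the latter lowered the STR mean, so its order of PFC and HIP means is not firm. Behind these means member 1 was listed at 0 in 3 STR libraries, 1 HIP library and 1 PFC library, and member 2 in 1 STR library and in the same PFC library. The medians were 757 and 702 FPKM in the PFC for members 1 and 2, and for member 1 748 FPKM in the HIP and 2240 FPKM in the STR. The short members 4 (782.5 bases) and 5 (870 bases) were high in every region, with 893, 963 and 1325 FPKM and with 736, 898 and 1181 FPKM in the PFC, HIP and STR. Member 9, the longest of the 47 with 5063 bases, also had its highest mean in the STR, with 424, 475 and 676 FPKM in the same order. Members 6, 7 and 8 had their highest means in the PFC. Among these 3, member 7 differed most, with 1012 FPKM in the PFC, 372 FPKM in the HIP and 348 FPKM in the STR. Member 6 had 877, 600 and 620 FPKM, and member 8 had 684, 568 and 433 FPKM. Member 10 was highest in the HIP, with 493, 611 and 435 FPKM.

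Before the groups were compared, the region labels of the libraries were checked on 15244 transcripts that were not members. In 140 of the 144 libraries the median correlation with the other libraries of the labelled region was higher than with either other region, by 0.0123 to 0.0433. In 4 libraries it was not. The libraries labelled HIP F344_Sal 10 and HIP HIV_Sal 6 were closest to STR libraries (0.746 and 0.743, against 0.720 and 0.718 with HIP libraries). The libraries labelled STR F344_Sal 10 and STR HIV_Sal 6 were closest to HIP libraries (0.755 in each, against 0.708 and 0.704 with STR libraries). The members showed the same. Member 3 had 1975 FPKM in the library labelled HIP F344_Sal 10, against 400 to 776 FPKM in the other libraries of that group, and 2072 FPKM in the library labelled HIP HIV_Sal 6, against 274 to 700 FPKM. It had 369 FPKM in the library labelled STR F344_Sal 10, against 1354 to 2768 FPKM, and 337 FPKM in the library labelled STR HIV_Sal 6, against 947 to 2766 FPKM. The 4 libraries were kept under their labels, and the counts of members, the spreads and several of the differences are also given without them. The HIV_Nic libraries PFC 10, PFC 11 and HIP 4 had the lowest median correlations with the other libraries of their region, at 0.485, 0.560 and 0.568. Depth could be read only as the ratio of read coverage to FPKM, which ran from 2.08 to 3.56 in the PFC, from 1.64 to 2.49 in the HIP and from 1.64 to 3.52 in the STR.

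**Figure D1:**
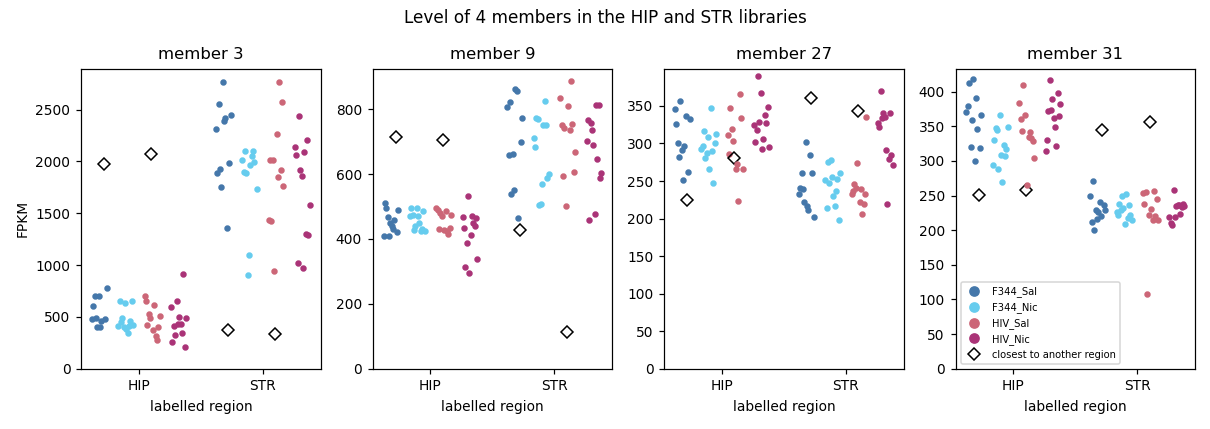
FPKM (y) of members 3, 9, 27 and 31 in every HIP and STR library (x, by labelled region and colored by group), with 1 point per library and diamonds for the 4 libraries that correlated best with another region. In the library labelled HIP HIV_Sal 6 member 3 lies at 2072 FPKM, among the STR values, and in the library labelled STR HIV_Sal 6 it lies at 337 FPKM, among the HIP values.

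The members stayed abundant in the groups that the rule did not use. The mean of 39 members was at least 200 FPKM in all 12 groups, and that of 8 members was below 200 FPKM in at least 1 group. In the F344_Sal groups the rule itself fixed this at 47 members. In F344_Nic, HIV_Sal and HIV_Nic it was reached by 46, 47 and 47 members in the PFC and by 46, 47 and 47 in the HIP. In the STR it was reached by 43, 44 and 44 members in the same order. Over all libraries, those of F344_Sal included, 34 to 47 members (median 42) reached 200 FPKM in a single library. The regional medians were 42 for PFC, 43 for HIP and 41 for STR. Among the 47 highest transcripts of at least 700 bases in a group, 36 to 40 were members, with 38 in each F344_Sal group. The 10 highest transcripts of each PFC and HIP group were all members. Of the 10 highest in an STR group 8 were members in F344_Sal and 9 in each of the other groups. Had the rule used another group, F344_Nic would have given 42 transcripts (40 of them members), HIV_Sal 48 (44 members) and HIV_Nic 48 (43 members). Without the replicate numbered 10 of F344_Sal in each region, 43 transcripts would have been chosen.

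Group medians were compared within and between regions. For the median member the highest of the 4 group medians was 1.17-fold the lowest for PFC, 1.14-fold for HIP and 1.23-fold for STR, and the highest regional mean of the group medians was 1.38-fold the lowest. The fold between regions was larger than that within each region in 30 members and not in 17, although a regional mean averages over 4 groups. A span of more than 1.2-fold within a region was found for 21 members of the PFC, 16 of the HIP and 27 of the STR, with the widest spans in member 23 (2.65-fold in the PFC), member 11 (2.64-fold in the HIP) and member 36 (2.52-fold in the STR). All 12 medians of 16 members lay within 1.5-fold, and those of 18 members spanned 2-fold or more. Member 46, of 1168 bases, was the only one with all 12 medians within 1.2-fold, from 211 FPKM in STR F344_Nic to 231 FPKM in HIP F344_Sal. The widest spans were those of member 11 (8.09-fold), member 3 (4.996-fold), member 1 (4.47-fold), member 7 (4.38-fold) and member 2 (4.13-fold). In each of these 5 the highest and lowest medians stood in different regions.

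**Figure D2:**
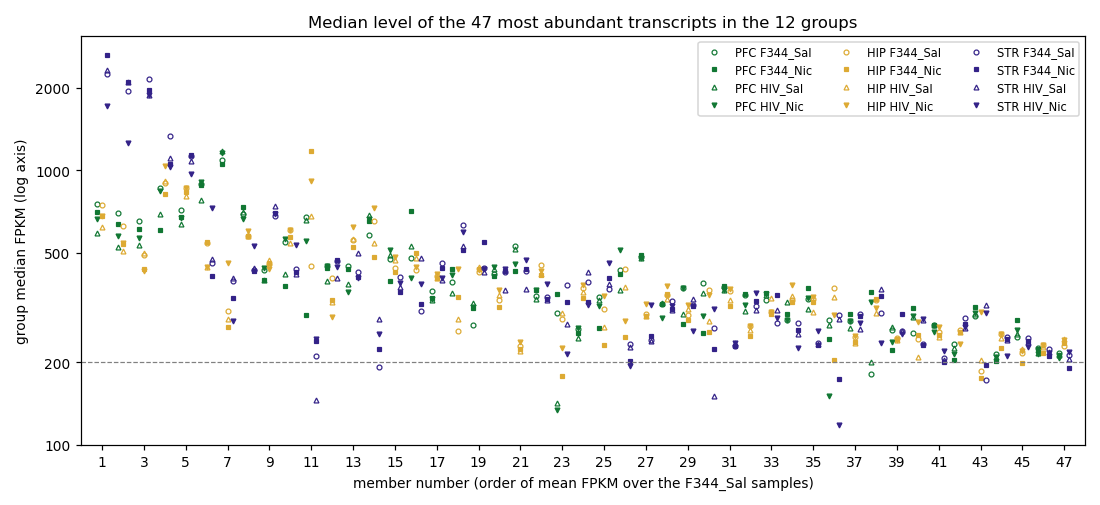
Median FPKM on a log axis (y) of the 47 members (x, by number) in the 12 groups, with 1 symbol per group and 1 color per region, the dashed line marking 200 FPKM. Members 1 to 3 stand highest in the STR and member 7 in the PFC, and symbols of the same color mostly lie close together.

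For the 40 members with a value in all 144 libraries the sum of squares of log2(FPKM + 0.1) was split into regions, groups within a region and rats within a group. The median shares were 10.5% between regions, 5.76% between groups and 82.7% between rats. Over 9553 annotated transcripts of at least 700 bases, members included, they were 5.32%, 5.91% and 87.2%, and equal spread at all levels would give 1.4%, 6.29% and 92.3%. The group share of the members thus lay near both of these values. Member 27, of 1658 bases, had 79.1% of its sum of squares between regions and member 31, of 2343.5 bases, 75.3%, and 2 of the 40 were thus over 50%, against 5.22% of all these transcripts. The 7 members left out, 3, 6, 7, 10, 13, 21 and 23, lacked a value in at least 1 library. Over the libraries that listed them (134 to 143) members 3, 7 and 21 had 67.8%, 56.0% and 52.2% between regions and the other 4 had 0.445% to 16.8%, so 5 of all 47 members were over 50%. The 5.22% covers only transcripts with a value in all 144 libraries, so it can be set beside the 2 of 40 but not beside the 5 of 47. Over 90% of the sum of squares lay between rats of a group in 12 of the 40, and in 34.3% of all these transcripts. The highest share between groups was that of member 4, at 18.4%. Without the 4 libraries closest to another region the median shares were 12.3%, 5.78% and 81.5%, and 3 of the 40 were over 50% between regions, member 9 having gone from 45.6% to 67.9%.

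In the median library the 47 transcripts held 12.2% of the FPKM of all annotated transcripts of at least 700 bases in the PFC, with 11.5% for the HIP and 13.3% for the STR. Of all annotated transcripts of any length they held 9.61%, 8.91% and 10.3%. Over these same transcripts of any length, by FPKM multiplied by length, which follows the number of fragments, they held 8.52%, 7.83% and 10.1%. Of the FPKM of every listed model, annotated or not, they held 0.0660%, 0.0975% and 0.0683%, and all annotated transcripts together held 0.705%, 1.09% and 0.676% of that total. The last figures show that a sum over every listed model is almost wholly made of models outside the annotation.

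In the order F344_Sal, F344_Nic, HIV_Sal and HIV_Nic, the median share of annotated transcripts of at least 700 bases was 12.4%, 12.2%, 11.8% and 12.3% in the PFC. In the HIP it was 11.9%, 11.5%, 11.4% and 11.5%, and in the STR 13.3%, 13.9%, 13.7% and 12.9%. Single libraries ranged from 10.97% to 15.8% in the PFC, from 10.2% to 14.1% in the HIP and from 9.60% to 15.7% in the STR. The summed level of the members had regional medians of 19269 FPKM in the PFC, 18463 FPKM in the HIP and 22085 FPKM in the STR. The highest sum, 31196 FPKM or a share of 15.8%, was that of PFC HIV_Nic 10, a library with a low correlation to the others of its region. The lowest, 14662 FPKM or 9.60%, was that of STR F344_Nic 5, in which members 1 and 2 were both listed at 0. Members 1 to 10 held 35.0% of the members' sum in the median PFC library, 33.5% in the HIP and 46.99% in the STR. This share was 51.3% in the library labelled HIP F344_Sal 10 and 49.0% in the library labelled HIP HIV_Sal 6. It was 29.4% in the library labelled STR F344_Sal 10 and 28.6% in the library labelled STR HIV_Sal 6, so all 4 stood away from the median of their labelled region. Leaving them out moved the group medians little, for members 1 to 10 from 33.8% to 33.7% in HIP F344_Sal and from 49.6% to 49.7% in STR HIV_Sal, and for all members among annotated transcripts of at least 700 bases from 11.4003% to 11.353% in HIP HIV_Sal and from 13.7% to 13.8% in STR HIV_Sal.

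**Figure D3:**
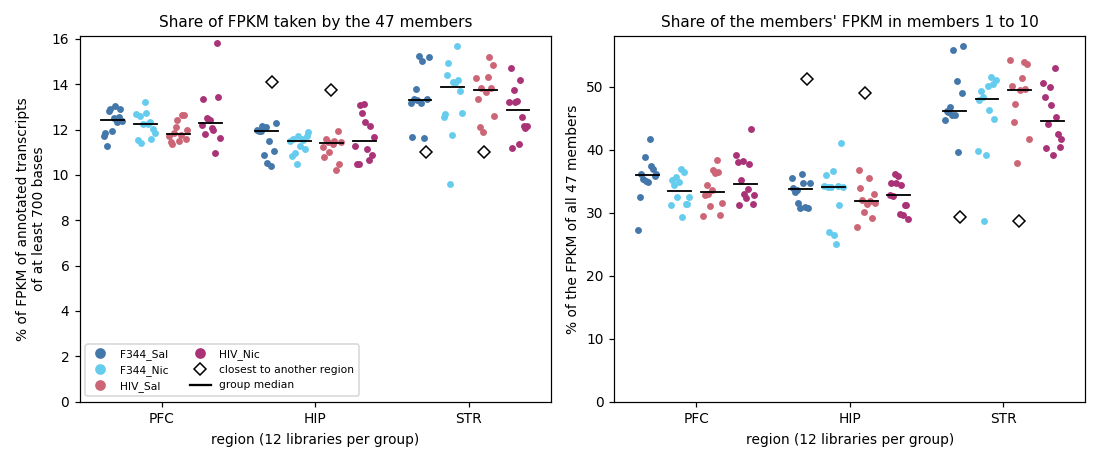
Share in percent (y) of the members among annotated transcripts of at least 700 bases, and of members 1 to 10 in the members' sum, in each library of the 12 groups (x), with 1 point per library, a line at each group median and diamonds for the 4 libraries that correlated best with another region. The ranges of the first share overlap between the 12 groups, and the second is higher in the STR (median 46.99%) than in the PFC (35.0%) and the HIP (33.5%).

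Members varied less between rats than annotated transcripts as a whole. The median coefficient of variation (CV, the SD in percent of the mean, n = 12) of the members was 20.7% to 34.3% in the 12 groups, and 42.4% to 52.7% over all annotated transcripts of at least 700 bases with a mean of at least 1 FPKM. The highest median, 34.3%, was that of PFC HIV_Nic, where 11 members (23.4%) had a CV over 50%, against 53.7% of all transcripts, and where 2 of the libraries with low correlations stand. Without the 4 libraries closest to another region the median CV went from 22.5% to 21.9% in HIP F344_Sal, from 22.1% to 20.9% in HIP HIV_Sal, from 25.1% to 24.1% in STR F344_Sal and from 26.9% to 26.0% in STR HIV_Sal, where the members with a CV over 50% went from 8 to 7, from 8 to 6, from 9 to 6 and from 5 to 4. The 95% interval that Cufflinks gave for a single value had a median half-width of 1.7% to 2.2% of that value. The steadiest members were 46, with a mean CV over the 12 groups of 7.65%, and 31 with 10.2%. The least steady were members 11 (90.1%) and 23 (84.1%).

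For some members the spread was smaller for the gene as a whole than for the transcript. The FPKM of all models matching or partly matching a gene were added to a gene total. In each group 24 to 31 of the 47 members had a gene total with a lower CV than the transcript itself. The same count was not made over all annotated transcripts. For member 43 the mean CV fell from 46.3% for the transcript to 14.4% for the gene total, and the transcript made up 50.1% of that total. For member 6 the values were 52.9% and 17.3% (58.0% of the total), for member 16 39.6% and 11.3%, for member 25 34.5% and 13.4%, and for member 18 30.4% and 14.3%. In these 5 members the level of the gene was steadier between rats than that of the transcript chosen by the rule. Other gene totals were less steady than the transcript. Examples were member 14 (41.0% for the transcript and 43.7% for the gene total), member 3 (35.8% and 37.6%), member 4 (23.9% and 25.1%) and member 13 (24.5% and 25.4%).

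A member was sometimes listed at or near 0 in a library of a group where it was otherwise abundant. Of 6741 member values, 94 (1.39%) were below 1/10 of their group's median, 91 of these being exactly 0. They came from 18 members and 78 libraries, with at most 3 in 1 library. In a group 6.38% to 14.9% of the members had such a case, against 33.1% to 39.7% of all annotated transcripts of at least 700 bases with a mean of at least 1 FPKM. Member 11 gave 42 of them, member 1 gave 9, and members 2, 23 and 38 gave 7 each. Member 36 gave 5, member 6 gave 3, members 16, 17 and 42 gave 2 each, and members 13, 14, 15, 18, 25, 40, 45 and 46 gave 1 each. The remaining members had none, and 31 members were never listed at 0. In 36 of the 52 cases outside member 11 the gene total was at least 50% of its group median, and in 4 it was lower but above 0. In the other 12, which were 7 cases of member 38, 3 of member 36 and 1 each of members 45 and 46, the gene total was listed at 0 as well.

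For member 11 the values followed the model that the table gave. Its annotated model stood in 81 libraries, with 41 of them at 0 and a median of 0 FPKM. An assembled model of 3952 bases stood in the other 63, with none at 0 and a median of 452 FPKM. The length of the annotated model was 864 bases. Its regional levels and its spread cannot be told apart from this difference in models. Levels also differed by model in other members. For member 21 the median was 915 FPKM for the annotated and 346 FPKM for the assembled model. For annotated, extended and assembled models it was 660, 604 and 425 FPKM in member 10 and 352, 187 and 117 FPKM in member 36. In members 18 and 25 the extended model had the higher median. The part of models in the differences of members 10, 21 and 36 was not tested. Over all members, 2442 cells of the tables held the annotated model, 3838 an extended form of it, 461 an assembled model and 27 none.

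Members 1 and 2 show the split between 2 transcripts of 1 gene. Member 1 held a median of 52.7% to 56.4% of their sum in the 12 groups, so the shares were near to even everywhere. In single libraries the values could swing to 0 or to 100%, as in STR F344_Sal, where 3 libraries listed member 1 at 0 and 1 listed member 2 at 0. The mean CV over the 12 groups was 45.0% for member 1, 45.4% for member 2 and 35.3% for their gene total. In 132 libraries member 1 was given by its annotated model, with 1 of them at 0, and in 12 by an extended model, with 8 of them at 0.

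**Figure D4:**
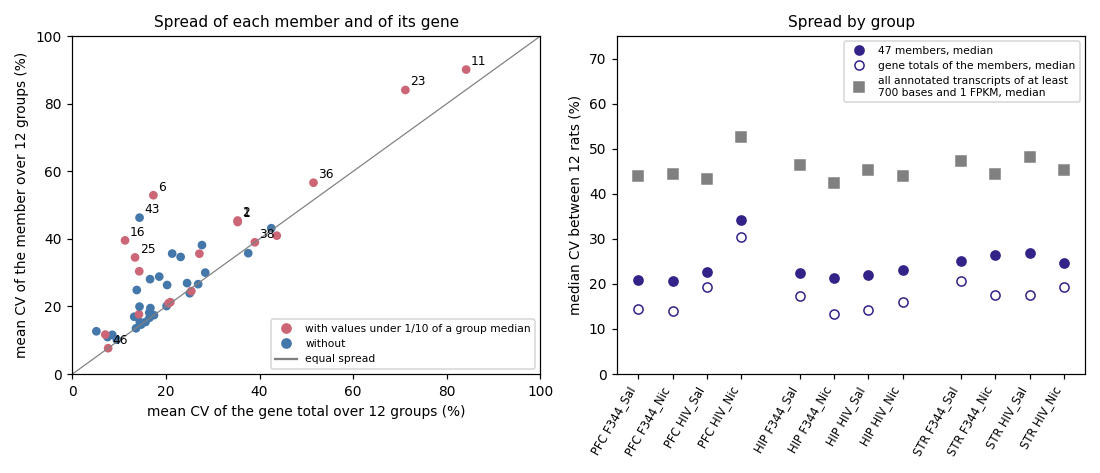
Left, mean CV over the 12 groups in percent of each member (y) against that of its gene total (x), with 1 point per member, red where the member had values under 1/10 of a group median, and right, the median CV in percent (y) of the members, of their gene totals and of all annotated transcripts in each group (x). Points above the diagonal are members whose gene total was steadier, such as member 43 (46.3% and 14.4%) and member 6 (52.9% and 17.3%), and the members' medians (20.7% to 34.3%) lie below those of all transcripts (42.4% to 52.7%).

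The regions were compared in the HIV_Sal rats, which the rule did not use, with limma on log2(FPKM + 0.1), and log2 differences are given with their standard error (SE). All 47 members passed the filter on low values. Between the STR and the PFC 7 members were higher (17.1% of all transcripts) and 12 lower (10.6%) in the STR with a fold over 1.2 and an unadjusted p under 0.05 (the first rule), which is 40.4% of the members, against 27.7% of the 14263 transcripts tested. With Benjamini-Hochberg adjustment over all transcripts (the second rule) 16 members passed, against 19.0% of all. Between the HIP and the PFC 11 members passed the first rule, against 21.9% of all, and 10 the second, against 13.1%. Between the STR and the HIP 16 and 14 members passed, against 22.6% and 13.6% of all. Without the libraries closest to another region the counts by the first and second rule were 19 and 17 for STR minus PFC (29.5% and 21.4% of all), 11 and 11 for HIP minus PFC (23.2% and 14.8%) and 20 and 18 for STR minus HIP (26.3% and 18.3%), among them all members that had passed the second rule with these libraries. The methods took all 3 regions from each brain, so the 36 libraries stand for 12 rats, while the labels do not say which libraries share a rat, and the test treats them as independent. The median difference of the members was -0.01 for STR minus PFC, -0.06 for HIP minus PFC and -0.04 for STR minus HIP, against 0.09, 0.05 and 0.04 over all transcripts, and members lay on both sides of 0 in each (23 above and 24 below, 22 and 25, 20 and 27). The sign of the medians over all transcripts depends on the scaling. With each library divided by its median they were -0.03, -0.01 and -0.01. The share of higher calls among all transcripts then went from 61.7% to 44.7% for STR minus PFC. The median SE of a member was smaller than that of all transcripts in every comparison between groups of this report (0.146 to 0.195 against 0.326 to 0.356), so that a given difference passed the test more easily for a member.

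Member 3 (ENSRNOT00000003283) was higher in the STR than in the PFC by the largest difference among the members past either rule. Its values in HIV_Sal rats, given as lowest, median and highest, were 388, 534 and 750 FPKM in the PFC, 274, 498 and 2072 FPKM in the HIP, and 337, 1884 and 2766 FPKM in the STR. The PFC and HIP values overlapped over most of their range. The STR values overlapped with them only through the libraries labelled HIP HIV_Sal 6 and STR HIV_Sal 6, which hold the highest HIP and the lowest STR value. Member 3 was higher in the STR than in the PFC by 1.55 ± 0.27 (log2 ± SE, limma, adjusted p = 5.45e-05) and higher than in the HIP by 1.61 ± 0.27 (limma, adjusted p = 4.99e-05). Without the libraries closest to another region the differences were 1.75 ± 0.16 and 1.99 ± 0.16 (limma, adjusted p = 3.9e-10 and 2.26e-11). Members 4 and 5 were also higher in the STR than in the PFC, by 0.62 ± 0.11 and 0.60 ± 0.08 (limma, adjusted p = 3.03e-05 and 8.76e-07).

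Member 7 (ENSRNOT00000008734) and member 14 (ENSRNOT00000014404) were lower in the STR than in the PFC by the largest differences among the members past either rule. Members 11, 17 and 1 had differences between the STR and the PFC of -2.02 ± 2.43, 2.09 ± 1.05 and 1.74 ± 0.89, larger in size than these or than that of member 3, that passed neither rule. Member 7 had 386, 1175 and 1391 FPKM in the PFC, 164, 288 and 644 FPKM in the HIP and 141, 405 and 659 FPKM in the STR. The PFC median lay above every HIP and STR value, although the lowest PFC value did not. The differences were -1.65 ± 0.29 for STR minus PFC and -1.63 ± 0.30 for HIP minus PFC (limma, adjusted p = 5.55e-05 and 0.000131). Member 14 had 298, 686 and 848 FPKM in the PFC and 98.5, 286 and 789 FPKM in the STR, the last of these in the library labelled STR HIV_Sal 6, against at most 419 FPKM in the others. Its STR minus PFC difference was -1.24 ± 0.27 (limma, adjusted p = 0.000689) and its STR minus HIP difference -0.83 ± 0.27 (limma, adjusted p = 0.0323). Without the libraries closest to another region these were -1.38 ± 0.24 and -1.08 ± 0.24 for member 14 and -1.74 ± 0.29 and -1.69 ± 0.30 for STR and HIP minus PFC in member 7.

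Members 27 and 31, also with most of their sum of squares between regions, differed by less. Member 27 had 345, 478 and 510 FPKM in the PFC, 223, 295 and 366 FPKM in the HIP and 206, 238 and 343 FPKM in the STR, and its PFC and STR values did not overlap. It was lower than in the PFC in both other regions, with differences of -0.90 ± 0.08 for the STR and -0.66 ± 0.08 for the HIP (limma, adjusted p = 1.69e-10 and 2.07e-07). Member 31 had 339, 367 and 405 FPKM in the PFC, 257, 338 and 410 FPKM in the HIP, and 108, 235 and 356 FPKM in the STR, where the 356 FPKM came from the library labelled STR HIV_Sal 6. Its difference of STR minus PFC was -0.68 ± 0.11 (limma, adjusted p = 5.99e-06). Without the libraries closest to another region it was -0.74 ± 0.09, and member 27 differed by -0.94 ± 0.08 in the STR and -0.65 ± 0.08 in the HIP.

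Of the further extremes, 3 had values at 0 or a gene total that differed less or in the other direction. Member 24 was higher than in the PFC in both other regions, by 0.69 ± 0.18 in the STR and 0.57 ± 0.18 in the HIP (limma, adjusted p = 0.00452 and 0.0278). Member 21 was lower in the HIP than in the PFC, with a difference of -1.19 ± 0.22 (limma, adjusted p = 0.000127). Member 17 had a difference of 2.20 ± 1.05 for HIP minus PFC (limma, adjusted p = 0.191), with 2 of the 12 PFC values at 0 and a PFC median of 337 FPKM. Member 1 was higher in the STR than in the HIP by 2.66 ± 0.89 (limma, adjusted p = 0.0388), and the gene total of members 1 and 2 by 1.64 ± 0.28 (limma, adjusted p = 1.55e-05), with 1 of the 12 HIP values of member 1 at 0. Member 30 was lower in the STR than in the HIP, with a difference of -0.71 ± 0.22 (limma, adjusted p = 0.022), while its gene total differed by 0.13 in the other direction. Without the libraries closest to another region the differences were 3.13 ± 0.91 for member 1 and -0.80 ± 0.23 for member 30.

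The study asked whether nicotine restores expression that is altered in HIV-1Tg rats, and the comparison of HIV_Nic with HIV_Sal rats gives the nicotine side of that question. In the PFC 6 members were higher in HIV_Nic than in HIV_Sal rats with a fold over 1.2 and an unadjusted p under 0.05 (limma), which is 12.8% of the members, against 6.44% of the 14651 transcripts tested (3.13% higher), and none of the members was lower. With Benjamini-Hochberg adjustment 0 members and 0 of all transcripts passed in limma, while 6 members and 996 transcripts (6.80%) had an unadjusted p under 0.05. The median difference was 0.06 over the members (28 above 0 and 19 below) and 0.01 over all transcripts. Member 4 had 504, 695 and 1047 FPKM in HIV_Sal and 523, 839 and 2165 FPKM in HIV_Nic rats, and its difference was 0.39 ± 0.16 (limma, unadjusted p = 0.0164, adjusted p = 0.727). Member 24 had 104, 245 and 275 FPKM in HIV_Sal and 208, 267 and 984 FPKM in HIV_Nic rats, and its difference was 0.45 ± 0.18 (limma, unadjusted p = 0.0159, adjusted p = 0.727). The groups overlapped for both members, and their highest values stood in HIV_Nic 10. In that library member 4 was at 2165 FPKM, against 523 to 1677 FPKM in the other 11, and member 5 at 2218 FPKM, against 573 to 1352 FPKM. Without HIV_Nic 10 only 1 member passed, against 4.26% of all transcripts, and without HIV_Nic 10 and 11 also 1 (2.13% of the members), against 4.08%. The latter was member 8, which was not among the 6 and was lower (-0.61 ± 0.28).

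The differences of the 4 other members that passed in the PFC were 0.27 for member 5, 0.28 for member 12, 0.38 for member 18 and 1.99 for member 17. The last rests on the 2 HIV_Sal libraries in which member 17 was listed at 0. Its values were 0, 337 and 362 FPKM in HIV_Sal and 304, 341 and 473 FPKM in HIV_Nic rats, so that the medians were nearly the same, and its gene total differed by 0.03 ± 0.05 (limma, unadjusted p = 0.531). The gene totals of members 4, 5 and 24 passed the same rule as the transcripts did, and those of members 12, 17 and 18 did not.

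In the HIP 0 members passed either rule for nicotine in HIV-1Tg rats in limma, against 4.56% of the 14907 transcripts tested. An unadjusted p under 0.05 alone was reached by 3 members and 870 transcripts (5.84%), and 0 transcripts passed with adjustment. With each of the 24 compared libraries left out in turn, 0 to 3 members passed the first rule. The median difference was 0.08 over the members, with 35 above 0 and 12 below, and 0.04 over all transcripts. Member 4 had 628, 1041 and 2043 FPKM in HIP HIV_Nic rats, where the highest value came from HIV_Nic 4 and the other 11 libraries reached at most 1165 FPKM.

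In the STR 4 members were higher (2.38% of all transcripts) and 3 lower (4.10%) in HIV_Nic than in HIV_Sal rats by the first rule, which is 14.9% of the members, against 6.48% of the 14888 transcripts tested. With adjustment 0 members passed in limma, against 0.262% of all transcripts, and 7 members had an unadjusted p under 0.05, as had 7.20% of all transcripts. The median difference was 0.01 over the members and -0.02 over all transcripts. Member 27 had 206, 238 and 343 FPKM in HIV_Sal and 220, 324 and 370 FPKM in HIV_Nic rats. Most HIV_Nic values lay above the HIV_Sal median, yet the groups overlapped, and the difference was 0.30 ± 0.09 (limma, unadjusted p = 0.00134, adjusted p = 0.187). Without the library labelled STR HIV_Sal 6, which holds the 343 FPKM, and the library labelled STR F344_Sal 10, it was 0.34 ± 0.08 (limma, adjusted p = 0.0472), and member 27 was then the only member to pass with adjustment. Its gene total differed by 0.02 ± 0.06 (limma, unadjusted p = 0.755), while member 27 made up 73.7% of that total in HIV_Sal and 89.6% in HIV_Nic rats.

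Member 30 had 72.5, 150 and 321 FPKM in STR HIV_Sal and 86.5, 312 and 495 FPKM in STR HIV_Nic rats, a difference of 0.67 ± 0.26 (limma, unadjusted p = 0.0139, adjusted p = 0.479). Its share of the gene total went from 30.98% to 65.4%, and the gene total itself differed by -0.44 ± 0.20 (limma, unadjusted p = 0.030). Member 36 had 138, 287 and 457 FPKM in HIV_Sal and 0, 118 and 424 FPKM in HIV_Nic rats, and the difference was -1.97 ± 0.66 (limma, unadjusted p = 0.00466, adjusted p = 0.316). Its gene total was lower too, with a difference of -1.02 ± 0.28 (limma, unadjusted p = 0.000667, adjusted p = 0.132). Member 16 had 220, 480 and 612 FPKM in HIV_Sal and 96.3, 387 and 535 FPKM in HIV_Nic rats, a difference of -0.56 ± 0.28, with a gene total that differed by 0.02. Members 20, 21 and 34 had differences of 0.27, 0.50 and -0.35. Of the 7, the gene totals of members 21, 30 and 36 passed the first rule, and that of member 30 in the opposite direction to its transcript. Without HIV_Nic 5 the count was 4 in place of 7, against 6.08% of all transcripts. Without the libraries closest to another region it was 5 (6.52% of all transcripts), members 21, 27 and 30 higher and members 16 and 36 lower, and 1 passed with adjustment, against 0.199%.

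Strain was compared under nicotine, HIV_Nic against F344_Nic, a comparison that uses the same HIV_Nic rats as the one above and is given beside it. In the PFC 3 members were higher in HIV-1Tg rats by the first rule (6.38% of the members), against 12.7% of the 14433 transcripts tested (7.88% higher). Without HIV_Nic 10 and 11 it was 5 (10.6% of the members), against 11.7% of all transcripts, with members 4 and 10 higher and members 8, 13 and 45 lower (-0.59, -0.45 and -0.36). With adjustment 1 passed, against 5.28%. Member 4 (ENSRNOT00000007175) had 382, 604 and 826 FPKM in F344_Nic and 523, 839 and 2165 FPKM in HIV_Nic rats. The groups overlapped, but the HIV_Nic median lay above every F344_Nic value. The difference was 0.63 ± 0.16 (limma, adjusted p = 0.00517), and without HIV_Nic 10 and 11 it was 0.42 ± 0.13 (limma, adjusted p = 0.0347). Its gene total differed by 0.54 ± 0.15 (limma, adjusted p = 0.0168). The F344_Sal rats, whose levels chose the member, had 569, 861 and 1238 FPKM, near the HIV_Nic values, and HIV_Sal rats had 504, 695 and 1047 FPKM. Member 10 had 210, 378 and 564 FPKM in F344_Nic and 375, 560 and 632 FPKM in HIV_Nic rats (1 library without the transcript in each), a difference of 0.51 ± 0.16 (limma, adjusted p = 0.0581), and its gene total rose by 0.48 ± 0.11 (limma, adjusted p = 0.00194). Member 24 differed by 0.41 ± 0.18 (limma, adjusted p = 0.272). Of the gene totals 4 passed with adjustment, those of members 4, 10, 15 (0.43) and 39 (0.16), against 5.54% of all genes.

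In the HIP 5 members were higher in HIV_Nic than in F344_Nic rats by the first rule (10.6% of the members), against 5.06% of the 14950 transcripts tested (3.31% higher). With adjustment 0 members passed in limma, against 0.0268% of all transcripts, and 10 members had an unadjusted p under 0.05, as had 6.80% of all. The differences were 0.32 for member 4, 0.30 for member 13, 0.29 for member 20, 0.75 ± 0.36 for member 36 and 0.92 ± 0.37 for member 43, with adjusted p from 0.614 to 0.708 in limma. Member 43 had 65.5, 175 and 353 FPKM in F344_Nic and 72.6, 305 and 485 FPKM in HIV_Nic rats, and member 36 had 41.7, 204 and 364 FPKM and 150.5, 297 and 492 FPKM. The groups overlapped over most of their range in both. Without HIV_Nic 4, 2 of the 5 passed, members 13 and 43, which is 4.26% of the members, against 4.34% of all transcripts. The median difference was 0.11 over the members, with 36 above 0 and 11 below, against 0.06 over all transcripts.

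In the STR 2 members passed the first rule for strain under nicotine (4.26% of the members), against 5.72% of the 14744 transcripts tested, and 0 passed with adjustment in limma, against 0.0271%. An unadjusted p under 0.05 was found for 3 members and 6.52% of all transcripts. With each of the 24 compared libraries left out in turn, 2 to 4 members passed the first rule. Member 27 had 198, 249 and 278 FPKM in F344_Nic and 220, 324 and 370 FPKM in HIV_Nic rats, a difference of 0.34 ± 0.09 (limma, unadjusted p = 0.000305, adjusted p = 0.237). In F344_Nic rats its level was thus close to that of HIV_Sal rats (median 238 FPKM), and its gene total differed by 0.06 ± 0.06. Member 33 had 273, 351 and 884 FPKM in F344_Nic and 122, 291 and 383 FPKM in HIV_Nic rats, and its difference was -0.51 ± 0.19 (limma, adjusted p = 0.625). The median over the members was 0.01, and over all transcripts -0.03.

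**Figure D5:**
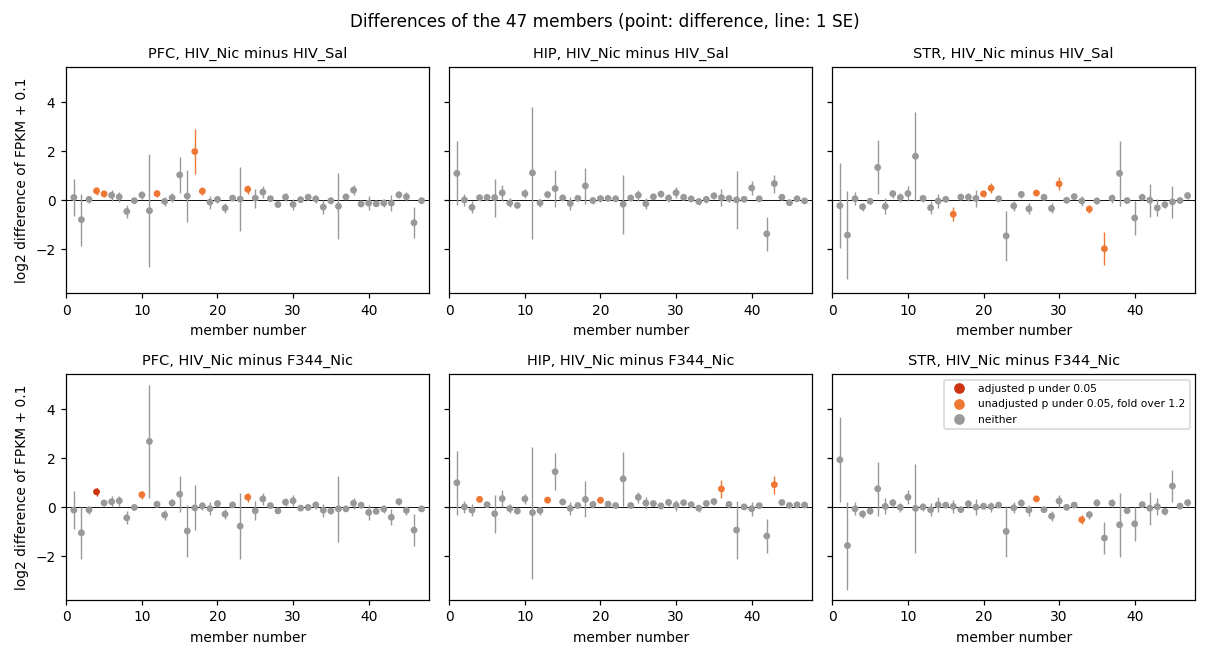
Log2 difference of FPKM + 0.1 (y, point) with 1 SE on either side (line) of the 47 members (x, by number) for nicotine in HIV-1Tg rats (top) and for strain under nicotine (bottom) in the 3 regions, in orange where the fold was over 1.2 and the unadjusted p under 0.05, and in red where the adjusted p was under 0.05 as well. The colored members are 6, 0 and 7 for nicotine and 3, 5 and 2 for strain in the PFC, HIP and STR.

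Whether the nicotine difference itself differed between regions was tested as an interaction in the 72 HIV-1Tg libraries, which stand for 24 rats with all 3 regions taken from each brain and were treated as independent. Between the STR and the PFC 8 members passed the first rule (17.0% of the members), against 7.47% of the 13302 transcripts tested, and 0 passed with adjustment in limma, against 0.113%. An unadjusted p under 0.05 was found for 9 members and 7.56% of all transcripts. The difference was larger in the STR for member 30 (0.84 ± 0.34), member 21 (0.81 ± 0.28), member 8 (0.72 ± 0.33) and member 41 (0.26 ± 0.11). It was larger in the PFC for member 26 (-0.68 ± 0.31), member 24 (-0.68 ± 0.27), member 4 (-0.65 ± 0.23) and member 44 (-0.40 ± 0.18), with adjusted p of 0.353 or more in limma for all 8. Without the HIV_Nic libraries PFC 10, PFC 11 and HIP 4 the count was again 8, of which 5 were shared, against 6.26% of all transcripts. Between the HIP and the PFC 1 member passed, member 28 with 0.42 ± 0.18, against 4.54% of the 13270 transcripts tested, and 4.61% of these had an unadjusted p under 0.05. Between the STR and the HIP 0 members passed in limma, against 6% of 13449 transcripts, and 0 members had an unadjusted p under 0.05, against 6.10%. With adjustment 0 members passed in either, against 0.00754% and 0.0818% of all transcripts.

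The comparisons with F344_Sal rats share the samples that chose the members and are given as values only. For HIV_Sal minus F344_Sal the median difference of the members was -0.04 in the PFC, -0.05 for HIP and -0.04 for STR, against -0.03, -0.01 and -0.04 over all transcripts, with 19, 18 and 15 members above 0 and 28, 29 and 32 below. For F344_Nic minus F344_Sal it was -0.02, -0.10 and -0.05, against -0.02, -0.03 and -0.04 over all transcripts, with 20, 12 and 19 members above 0 and 27, 35 and 28 below. A fold of 1.2 was passed upward by 4, 3 and 5 members and downward by 7, 4 and 5 in HIV_Sal, in the order PFC, HIP and STR. Over all transcripts the shares past that fold were 17.9%, 21.0% and 19.7% upward and 22.5%, 21.0% and 24.1% downward. In F344_Nic it was passed upward by 7, 4 and 7 members and downward by 7, 9 and 7, and by 20.7%, 20.7% and 18.7% of all transcripts upward and 26.2%, 22.9% and 23.0% downward.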

How the data were processed

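The authors sequenced mRNA libraries of 144 samples in paired ends, used Bowtie and TopHat for alignment (rat genome build Rn4) and Cufflinks with Ensembl annotation for assembly and quantification, and deposited FPKM values per transcript model with their 95% intervals, coverage and lengths. Total read counts per library were not given in the sources used here, so no counting interval could be made. Each region and strain had its own table. The tables of a region were joined by reference transcript, keeping the class of models that match the annotation. Every value column was matched to a sample by its name (0 columns unused).

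The members were the matching models with a length of at least 700 bases and a mean of at least 200 FPKM over the 12 F344_Sal libraries in each of the 3 regions, an absent cell counting as 0. The members and lists were chosen with earlier results of these data known. Transcripts with over 0.01 FPKM in at least 6 of 12 rats in both compared groups were tested with limma 3.58.1 (trended prior, R 4.3.3) on log2(FPKM + 0.1), in one fit over the 48 libraries of a region, over the 36 HIV_Sal libraries for regions, and over the 72 HIV-1Tg libraries for the interaction. All 3 regions came from each brain, so these libraries share 12 and 24 rats, which the fits do not model. A fold is on this scale and understates changes at low levels. Transcripts were called with a fold over 1.2 and an unadjusted p under 0.05, or at a Benjamini-Hochberg p under 0.05. The first rule takes both limits from the methods of the study but not its test, which was a two-way analysis of variance followed by a Tukey-Kramer test and calls fewer transcripts (tried as an alternative). All tests were two-sided. Absent cells were left out of a fit. The script was checked on simulated data, and Python 3.11.15 with numpy 2.4.6, pandas 2.3.3 and matplotlib 3.10.9 was used for the rest.

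Described singly are the 10 highest members, the 2 highest and 2 lowest log2 differences among the members called in each comparison, members with values under 1/10 of a group median, the neighbours of the 200 FPKM limit and the 2 steadiest and 2 least steady members. Other members were named after their values were seen. The alternatives tried were the pseudocount, the filter, the scaling, sample weights, removal of values, another test, the replicate block and the omission of libraries. Gene totals, the omission of the libraries closest to another region and further variants of the rule were added after seeing the data. The labels do not tie a replicate number to a rat across regions, and same-numbered samples did not deviate together (0 of 12 pairs correlated above 0.1 in each comparison).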

Additional observations from a re-analysis of the deposited data

How the results depend on the processing

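Counts and shares stayed within 1.5 times the value of the report (or within 1 SD) in 631 pairs of a result and a setting, and moved further in 75. These pairs include every library left out in turn, and a count of 0 that stayed at 0 was taken as kept. The 631 is therefore no measure of how firm the results are. For the shares the value compared was the share of every listed model. For single members, and for spreads and shares without the libraries closest to another region, the result was kept in 955, the call was lost in 132 and the direction turned in 4. Counts below are members with a fold over 1.2 and an unadjusted p under 0.05, unless named as adjusted, with the value of the report in brackets. The cause of each move was not tested beyond what the setting itself changes.

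For nicotine in HIV-1Tg rats the PFC count (6) was 2 with sample weights, 1 without the libraries that stand apart (HIV_Nic 10 and 11), 0 by the Tukey-Kramer test and 1 without HIV_Nic 10. The HIP count (0) was 1 with a pseudocount of 1, sample weights, gene totals, only the 24 samples compared or without HIV_Nic 4, and 6 with low values and outliers removed. The STR count (7) was 3 with gene totals, 4 with only the 24 samples and 2 by the Tukey-Kramer test, and the adjusted count (0) was 1 without the libraries closest to another region and 4 with outliers removed. For strain under nicotine the PFC count (3) was 6 with gene totals, 5 without the libraries that stand apart and 6 with outliers removed. The adjusted PFC count (1) was 2 with scaling by fragments, sample weights, only 24 samples or without the libraries that stand apart, 4 with gene totals and 5 with outliers removed. The HIP count (5) was 3 with median scaling, scaling by fragments or sample weights, 1 with gene totals or the Tukey-Kramer test and 2 without HIV_Nic 4. The STR count (2) was 1 with gene totals or the Tukey-Kramer test, 4 with only 24 samples and 9 with outliers removed, where the adjusted count (0) was 2. The adjusted count for STR minus PFC in HIV_Sal rats (16) was 25 with gene totals, and the interaction of STR and HIP (0) was 1 without the libraries closest to another region. The share of all transcripts called moved with several of these settings. With low values and outliers removed it went from 4.56% to 10% for nicotine in the HIP, from 5.72% to 12.4% for strain in the STR (adjusted 0.0271% to 0.97%), from 0.262% to 1.72% adjusted for nicotine in the STR and from 12.7% to 19.1% (adjusted 5.28% to 11.2%) for strain in the PFC. With gene totals the adjusted share for STR minus PFC went from 19% to 35.4% of all genes. By the Tukey-Kramer test the share was 1.32% and 2.3% for nicotine in the PFC and STR and 1.3% and 1.72% for strain in the HIP and STR. With a limit of 100 FPKM the rule gave 130 transcripts and with 400 FPKM 11 (47). The share of the members depends on its denominator. It was taken over annotated transcripts of at least 700 bases, over all annotated transcripts, and over all annotated transcripts by FPKM multiplied by length. In that order it was 12.2%, 9.61% and 8.52% in the PFC, 11.5%, 8.91% and 7.83% in the HIP and 13.3%, 10.3% and 10.1% in the STR.

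The direction turned for member 17 in the PFC under nicotine with outliers removed (-0.033), and with gene totals for member 16 (0.020) and member 30 (-0.44) in the STR under nicotine and for member 30 in STR minus HIP (0.13). With each library left out in turn the nicotine counts ran from 1 to 7 in the PFC, from 0 to 3 in the HIP (3 without HIV_Sal 1) and from 4 to 8 in the STR (4 without HIV_Nic 5). The strain counts ran from 2 to 4 in the PFC (adjusted 1 to 2, with 2 without F344_Nic 4 or 8 or HIV_Nic 5 or 12), from 2 to 6 in the HIP (2 without HIV_Nic 4) and from 2 to 4 in the STR (4 without HIV_Nic 6 or 7). The region counts ran from 18 to 21 for STR minus PFC, from 9 to 13 for HIP minus PFC and from 14 to 19 for STR minus HIP. With the replicate number as a replicate block the counts in the PFC, HIP and STR were 4, 0 and 7 for nicotine, 3, 4 and 2 for strain, 18, 11 and 16 for STR minus PFC, HIP minus PFC and STR minus HIP, and 8, 2 and 0 for the interactions in that order.

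Dividing each library by its median shifted the median of all transcripts by -0.12 for STR minus PFC, by -0.06 for HIP minus PFC and by -0.06 for STR minus HIP. The share of higher calls among all transcripts then went from 48.7% to 62.3% for nicotine in the PFC, from 36.8% to 47.4% in the STR, from 38.6% to 53.0% for strain in the STR, from 61.7% to 44.7% for STR minus PFC, from 56.1% to 45.3% for HIP minus PFC and from 59.2% to 49.3% for STR minus HIP. Scaling by fragments moved it from 65.4% to 54.4% for strain in the HIP, and the Tukey-Kramer test from 61.9% to 75.6% in the PFC. Depth is known only as a ratio and values were not given as counts, so no counting interval was computed here.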
